A study of Mus musculus with 66 samples.

Results

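Newly made RNA of 3T9-MycER fibroblasts was compared between 2 h and 30 min of 4-hydroxytamoxifen (OHT), to find which early responses to Myc faded, grew or began in that interval. The comparison took the 6 libraries of 4-thiouridine (4sU) labelled RNA at these times, 3 at 2 h and 3 at 30 min, out of 66 libraries in the series. The 3 labelled libraries at 0 min served to say whether a gene had already responded by 30 min. Values for introns and for exons came as separate tables of 11513 genes, of which 11506 were tested in introns and 11488 in exons.

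All groups were 3T9 fibroblasts derived from mouse embryonic fibroblasts of day E13.5 with genotype c-myc flox/flox, infected in culture with a pBabe bleomycin retrovirus carrying MycER. MycER is a fusion of Myc with the hormone-binding region of the oestrogen receptor, which keeps Myc inactive until OHT is added. The 2 h group had 2 h of 400 nM OHT, the 30 min group had 30 min of 400 nM OHT, and the labels of the 0 min group name no treatment. Cells were exposed to 300 µM 4sU for 10 min, and RNA that had taken it up was biotinylated and captured on streptavidin. No group had the same times without OHT, so effects of OHT, of handling and of MycER cannot be told apart. Nothing in the labels says that replicates came from different cultures, so a p-value here reflects only how far these libraries vary, and that variation may be technical.

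Myc binds DNA as a dimer with Max, most readily at the E-box CACGTG, and is known for raising genes of ribosome production, nucleotide synthesis and nutrient uptake. CLOCK and ARNTL, the activators of the circadian clock, bind the same E-box, and REV-ERB receptors, whose genes they switch on, repress Arntl through ROR elements. In RNA labelled for minutes, intron reads come from transcripts not yet spliced and follow transcription closely. Exon reads also need the polymerase to have crossed the gene, so in long genes they follow later.

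Deposited intron values summed to 34.38 M to 35.68 M per library at 2 h and 36.90 M to 39.26 M at 30 min, and exon values to 12.38 M to 13.56 M at 2 h and 12.50 M to 13.16 M at 30 min (M for mega), on a scale that hides the read number. Of 15 fibroblast markers, 11 were in the table, and their summed exon values were 108037 to 117799 at 2 h and 114466 to 122241 at 30 min. Markers of epithelium, endothelium, leukocytes and neurons summed to 51 to 368 per list and library, with 2 to 5 members of each list in the table. Of these, Erg introns, for an endothelial factor, rose (log2 change 1.28 ± 0.25, limma adjusted p = 0.000423), and Tubb3 exons, for a neuronal tubulin, rose (log2 change 0.95 ± 0.23, limma adjusted p = 0.00597), and no other member of these lists was called. The neural list as a whole had median changes of -0.46 in introns and -0.40 in exons, and endothelial Esam changed by -0.41 in introns and -0.52 in exons, not called (limma adjusted p = 0.115 and 0.143). The part of these cells in the results was not tested. In the principal components of the labelled libraries at 0 min, 30 min and 2 h, replicate 3 at 30 min stood apart from replicates 1 and 2. Its second-component scores were -24.1 against -13.0 and -11.3 in introns and -26.0 against -8.1 and -8.3 in exons. Replicate 3 at 2 h had a score of 21.3 in introns, against 10.0 and 13.4. The main counts below, and list counts that move with these libraries, are therefore also given without them, and "in all 6 fits" means that a call was kept whichever of the 6 libraries was left out. No 0 min library was left out, though replicate 3 at 0 min had a second-component score of 11.7 in exons, against 0.5 and 4.1.

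Between 2 h and 30 min, labelled introns of 1263 genes rose and those of 1261 fell, each 11% of the genes tested, at a limma adjusted p under 0.05. Labelled exons rose for 539 genes (4.69%) and fell for 522 (4.54%). Among the larger rises were Rgcc, Ankrd6, Pcsk6 and Mob3b, and among the larger falls Arntl, Nfil3 and Klf13. In bulk samples, fewer cells of a type and less RNA per cell cannot be told apart. Introns and exons came from the same libraries, and 251 genes rose in both, which was 19.9% of the intron rises and 46.6% of the exon rises. Falls in both numbered 319, or 25.3% of the intron falls and 61.1% of the exon falls. The groups of 3 libraries did not overlap for 41.5% of genes in introns and 30.4% in exons, so a lack of overlap by itself is common. Without replicate 3 at 30 min the counts were 677 rises and 733 falls in introns and 313 and 255 in exons. Without replicate 3 at 2 h they were 660 and 739 in introns and 330 and 318 in exons. In all 6 fits, 499 intron rises (4.34%) and 575 intron falls (5%), and 204 exon rises (1.78%) and 170 exon falls (1.48%), were kept. The balance of directions depended on the scaling of libraries. With scaling by library sums there were 2122 rises and 727 falls in introns, and with no further scaling 850 and 1386 in introns and 502 and 317 in exons. Those scalings moved the median of all genes by 0.08 and -0.04 on the log2 scale in introns.

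Genes were sorted into classes by their calls for 30 min against 0 min, 2 h against 30 min and 2 h against 0 min. A fading riser was higher at 30 min than at 0 min and lower at 2 h than at 30 min. A growing riser was higher at both steps, and a late riser was not called at 30 min but was higher at 2 h than at 30 min and at 0 min. Fallers were named the same way. Labelled introns held 442 fading, 209 growing and 335 late risers, and 566 fading, 142 growing and 511 late fallers. Labelled exons held 39 fading, 154 growing and 301 late risers, and 21 fading, 30 growing and 357 late fallers. A class in one table did not need the same class in the other. At 30 min against 0 min, 22% of genes were higher and 20.1% lower in introns, and 7.87% higher and 3.7% lower in exons. At 2 h against 0 min, 22.7% were higher and 21.3% lower in introns, and 15% higher and 12.3% lower in exons.

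**Figure D1:**
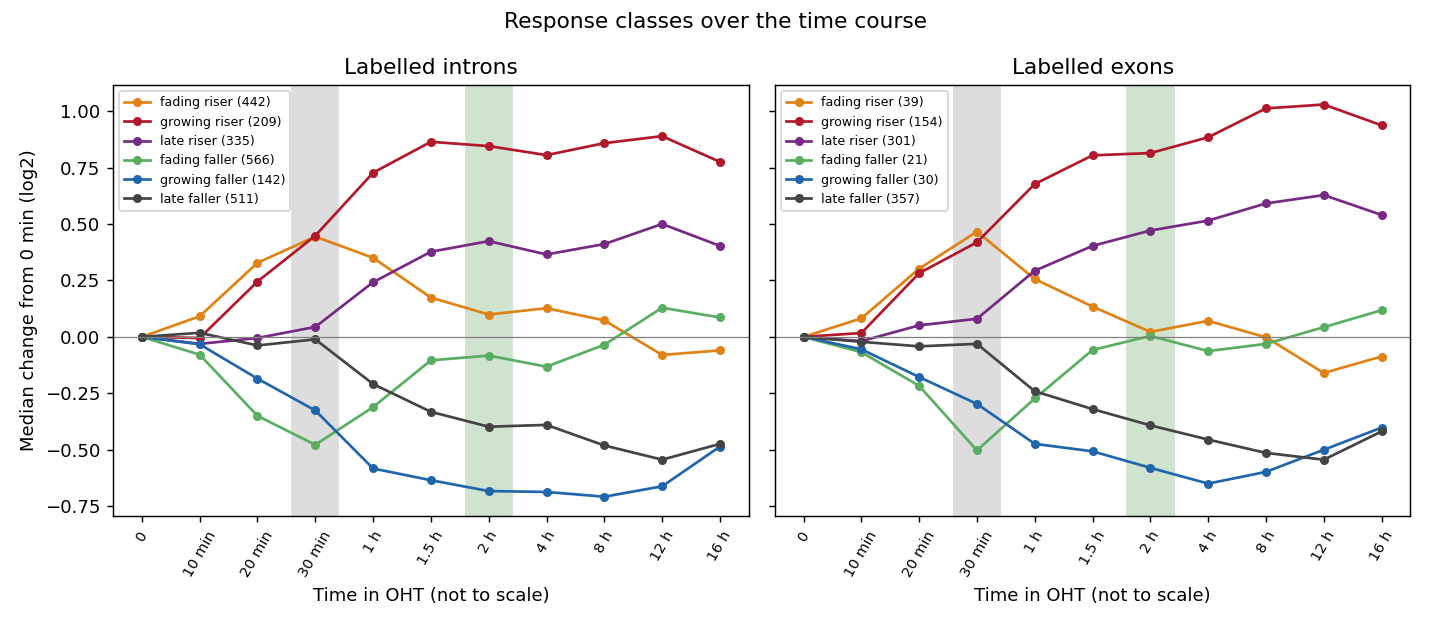
Median log2 change from 0 min of each response class at each time in OHT (horizontal axis, not to scale), for labelled introns and labelled exons, with the number of genes in brackets. The green band marks 2 h and the grey band 30 min, the times that with 0 min defined the classes. In introns the median of the fading risers was 0.10 at 2 h and 0.44 at 30 min, and that of the growing risers 0.85 at 2 h and 0.45 at 30 min.

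The 30 min libraries enter both steps of a fading class, so 1 high or low library there can produce members. Without replicate 3 at 30 min the fading risers numbered 193 in introns and 5 in exons, and the fading fallers 262 and 8. Without replicate 3 at 2 h the late risers numbered 169 in introns and 182 in exons, and the late fallers 312 and 224. The growing risers numbered 136 in introns and 81 in exons without replicate 2 at 30 min, and the growing fallers 77 in introns without replicate 2 or replicate 3 at 30 min and 10 in exons without replicate 3 at 30 min. The labelled libraries at 1.5 h and 20 min gave no means to the classes, although they entered the scaling and the spread of the fit. Their own contrast gave another view of the step. At 1.5 h against 20 min, 14.1% of all genes were higher and 12.7% lower in introns, and 8.83% higher and 6.82% lower in exons. Of the growing risers 198 of 209 were higher at 1.5 h than at 20 min, and of the late risers 260 of 335. Of the growing fallers 128 of 142 were lower, and of the late fallers 340 of 511. Of the fading risers 159 of 442 were lower and 8 higher, and of the fading fallers 267 of 566 were higher. The median change of the fading risers was -0.14 between 1.5 h and 20 min, against -0.31 between 2 h and 30 min.

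Total RNA was sequenced in separate libraries of the same times, and 7.58% of genes were higher and 10.4% lower at 2 h than at 30 min in its introns. Total RNA introns were lower at 2 h for 210 of the 442 fading risers, 115 of the 142 growing fallers and 367 of the 511 late fallers. They were higher for 155 of the 209 growing risers, 169 of the 335 late risers and 128 of the 566 fading fallers. In total exons 10.4% of genes were higher and 8.19% lower, and 146 of the 154 growing risers and 199 of the 301 late risers of labelled exons were among the higher. Of the fading classes of labelled exons, total exons were lower for 7 and higher for 2 of the 39 fading risers, and higher for none of the 21 fading fallers, whose median change in total exons was -0.03. Total exons were lower for 27 of the 30 growing and 216 of the 357 late fallers of labelled exons.

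Most circadian clock genes rose by 30 min, and introns of most fell between 30 min and 2 h. Of 17 measured clock genes, 12 had higher introns at 30 min than at 0 min and none lower, while 10 had lower introns and 1 higher introns at 2 h than at 30 min. Their median intron change was -0.29, with 0.00 over all genes tested. Exons fell for 3 and rose for none. Of all genes tested, 22% were higher in introns at 30 min than at 0 min. Between 30 min and 2 h, 11% of them fell in introns and 4.54% in exons. In all 6 fits the intron falls of Nr1d1, Per1, Per2, Nfil3, Arntl and Clock were kept, and without replicate 3 at 30 min no other intron call of the list was. Between 1.5 h and 20 min, introns of 4 fell and of 3 rose, where 12.7% of all genes fell and 14.1% rose. Library-sum scaling gave 6 lower and 2 higher, and no further scaling 11 lower and 1 higher.

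Nr1d1 encodes REV-ERBα, the receptor that represses Arntl, and lies at chr11:98629246-98636647 of mm9. Its labelled intron values were 726, 633 and 674 at 2 h and 1132, 1156 and 1390 at 30 min, with 191, 182 and 149 at 0 min (log2 change -0.85 ± 0.14, limma adjusted p = 5.11e-05 for 2 h against 30 min). All 2 h libraries lay below all 30 min libraries and above all 0 min libraries. Its exon values were 1460, 1361 and 1477 at 2 h and 1584, 1581 and 2048 at 30 min, a change of -0.27 that did not pass (limma adjusted p = 0.131). The exon to intron ratio within libraries rose, by 0.58 ± 0.11, limma adjusted p = 0.00227 (log2 of the exon value over the intron value). In the libraries of 1.5 h and 20 min the introns fell (log2 change -0.48 ± 0.14, limma adjusted p = 0.00935) and the exons rose (log2 change 0.40 ± 0.11, limma adjusted p = 0.013).

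Nfil3, a leucine zipper repressor that acts on D-box elements of clock genes, had the largest intron fall of the early risers that met the rule for named genes. Its intron values were 753, 747 and 723 at 2 h and 2075, 1982 and 2406 at 30 min, with 1422, 1356 and 1322 at 0 min (log2 change -1.53 ± 0.11, limma adjusted p = 6.04e-12). The 2 h libraries were below all 0 min libraries as well. Exons also fell, with 316, 292 and 253 at 2 h and 562, 537 and 661 at 30 min (log2 change -1.03 ± 0.11, limma adjusted p = 5.45e-08). At 1.5 h against 20 min, in other libraries, its introns fell too (log2 change -1.12 ± 0.11, limma adjusted p = 2.48e-09).

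Per1 and Per2 encode repressors of the CLOCK-ARNTL dimer. Per1 introns were 171, 164 and 157 at 2 h and 287, 308 and 314 at 30 min (log2 change -0.88 ± 0.14, limma adjusted p = 4.33e-05), again with no overlap. Per2, chosen after its values were seen, had 636, 527 and 506 at 2 h and 1017, 991 and 1259 at 30 min (log2 change -0.97 ± 0.17, limma adjusted p = 0.000157). In exons Per1 fell (log2 change -0.80 ± 0.11, limma adjusted p = 1.02e-05), while Per2 changed by -0.49 and did not pass (limma adjusted p = 0.0761). The intron falls of Cry1, Cry2, Nr1d2 and Bhlhe40, further repressors of the clock also chosen after their values were seen, were between -0.29 and -0.54 and were lost without replicate 3 at 30 min (limma adjusted p = 0.241, 0.062, 0.0871 and 0.214). The same calls were lost without replicate 3 at 2 h (limma adjusted p = 0.101, 0.117, 0.142 and 0.162). The 1 clock gene whose introns rose was Hlf, a D-box activator likewise chosen after its values were seen (log2 change 0.95 ± 0.31, limma adjusted p = 0.0267), and its call was also lost without replicate 3 at 30 min (limma adjusted p = 0.157).

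Arntl, the partner of CLOCK, was a late faller at chr7:120350979-120457636 of mm9. Its intron values were 2017, 2301 and 1987 at 2 h, 5178, 6662 and 7144 at 30 min and 4855, 6688 and 5807 at 0 min (log2 change -1.58 ± 0.14, limma adjusted p = 2.68e-09). All 2 h libraries lay far below all 30 min libraries, while the 30 min and 0 min libraries overlapped. Exons fell as well, with 326, 306 and 344 at 2 h and 609, 801 and 809 at 30 min (log2 change -1.17 ± 0.17, limma adjusted p = 1.65e-05), and total RNA exons did not pass (-0.18, limma adjusted p = 0.46). Clock introns, also chosen after their values were seen, fell by a smaller amount, with 9214, 10030 and 9122 at 2 h and 11680, 10850 and 11300 at 30 min (log2 change -0.25 ± 0.06, limma adjusted p = 0.00322). Between 1.5 h and 20 min Arntl introns fell by 0.79 on the log2 scale (limma adjusted p = 0.000102), while those of Clock changed by -0.06 and did not pass (limma adjusted p = 0.508).

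The letters TAGGTCA, the core of the ROR elements bound by ROR and REV-ERB receptors, were searched on both strands in RefSeq promoters (250 bases before to 50 after each start, GRCm38.p6). They were present for 2.2% of the 8888 tested genes with a listed promoter and for 3.9% of the 407 late fallers of introns with one, the class of Arntl. Among the 330 fading risers of introns, the class of Nfil3, the share was 1.8%, and the other 4 classes had 1.5% to 2.8%. In exons it was 3.6% of 280 late fallers, 4.3% of 116 growing risers, 4.2% of 24 fading risers and 4.0% of 25 growing fallers. The late risers of exons had 1.7% and the fading fallers 0.0%, with 2.2% of the 8868 genes tested. Arntl (chr7:113207261-113207560, plus strand) and Nfil3 (chr13:52980990-52981289, minus strand) held them, and both promoters are shown because these genes had the largest called falls of the clock list. The match is in capitals, starting 31 bases after the start of transcription in Arntl and 12 bases before it, on the opposite strand, in Nfil3. Arntl has 2 listed promoters, of which 1 that holds the match is shown.
Arntl: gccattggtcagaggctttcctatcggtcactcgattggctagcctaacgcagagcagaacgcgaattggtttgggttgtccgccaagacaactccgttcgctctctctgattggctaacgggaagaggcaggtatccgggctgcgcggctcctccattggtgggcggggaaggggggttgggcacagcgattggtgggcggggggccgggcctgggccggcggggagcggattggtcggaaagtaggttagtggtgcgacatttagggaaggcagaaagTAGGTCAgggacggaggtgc
Nfil3: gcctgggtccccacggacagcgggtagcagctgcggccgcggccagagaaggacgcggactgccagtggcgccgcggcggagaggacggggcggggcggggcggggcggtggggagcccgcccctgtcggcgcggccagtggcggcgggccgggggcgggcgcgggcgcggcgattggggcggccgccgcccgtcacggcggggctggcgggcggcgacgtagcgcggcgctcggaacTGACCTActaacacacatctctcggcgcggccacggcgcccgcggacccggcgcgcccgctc
A match describes the sequence and was not tested as a site.

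**Figure D2:**
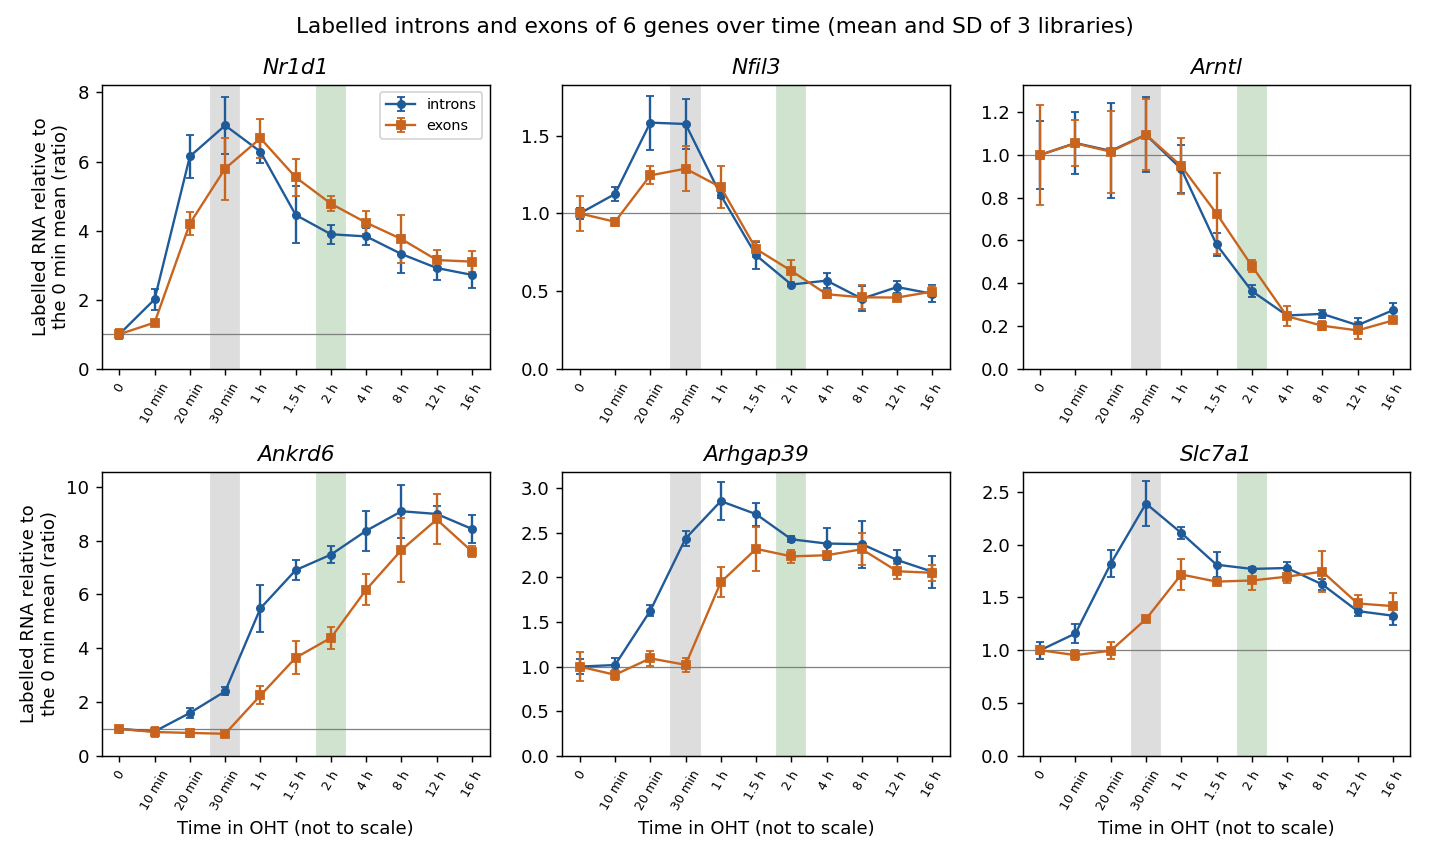
Mean labelled RNA of 6 genes relative to the 0 min mean of the same table (vertical axis, ratio), at each time in OHT (horizontal axis, not to scale), for introns (circles) and exons (squares), with SD over 3 libraries. The green band marks 2 h and the grey band 30 min. Nfil3 and Arntl end below their 0 min level, and the exon curves of Ankrd6, Arhgap39 and Slc7a1 rise after their intron curves.

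Genes of the Myc network, the Max partners that compete with or parallel Myc, also turned in introns. Of 9 measured members, 5 had higher introns at 30 min than at 0 min and none lower. At 2 h against 30 min, introns of 5 fell and of none rose, with a median of -0.31, and 4 of the falls held in all 6 fits. The share of all genes whose introns fell was 11%, and 22% of all genes had been higher at 30 min than at 0 min. In exons limma called 0 of 9 at adjusted p under 0.05 and 3 at unadjusted p under 0.05, with a median of -0.02. Without further scaling the intron count was the same, and scaling by library sums gave 5 lower and 1 higher.

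Max, the obligate partner of Myc at chr12:78038256-78063235 of mm9, had intron values of 5945, 6588 and 6258 at 2 h and 7225, 7608 and 8507 at 30 min, with 3765, 3824 and 3354 at 0 min (log2 change -0.31 ± 0.08, limma adjusted p = 0.00385). The 2 h libraries lay between the other groups, overlapping neither. Max exons were 994, 988 and 983 at 2 h and 959, 903 and 901 at 30 min and did not pass (log2 change 0.10, limma adjusted p = 0.341). Mlxip (MondoA), a glucose-responsive factor that pairs with Mlx, fell in introns to 7235, 6589 and 6481 at 2 h, against 8629, 8876 and 9887 at 30 min (log2 change -0.43 ± 0.06, limma adjusted p = 1.38e-05).

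Mxd4 and Mnt encode Max partners that repress transcription. Mxd4 introns were 440.4, 458 and 424 at 2 h and 776, 932 and 804 at 30 min (log2 change -0.92 ± 0.13, limma adjusted p = 1.06e-05), and its exons were 216, 168 and 192 at 2 h and 192, 195 and 192 at 30 min. The exon groups overlapped, and the exon to intron ratio rose (0.90 ± 0.17, limma adjusted p = 0.00253). Mnt, chosen after its values were seen, fell in introns (log2 change -0.39 ± 0.11, limma adjusted p = 0.00803), a call lost without replicate 3 at 2 h (limma adjusted p = 0.0832). Mxd3 fell without an early rise, with intron values of 87.04, 74.02 and 65 at 2 h and 154, 129 and 146 at 30 min (log2 change -0.92 ± 0.18, limma adjusted p = 0.000403). At 1.5 h against 20 min the introns of Mxd4 fell (-0.64 ± 0.13, limma adjusted p = 0.000522) and those of Max (-0.12 ± 0.08, limma adjusted p = 0.272) and Mlxip (-0.01 ± 0.06, limma adjusted p = 0.901) did not pass. The exon to intron ratio rose for 4 of the 9 members (Max, Mlxip, Mxd4 and Mnt), where 3.47% of the 11481 genes tested rose and 2.25% fell.

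The E-box CACGTG was searched in the same promoters. It was present for 12.1% of the 8888 tested genes, for 18.2% of 330 fading risers, 13.9% of 166 growing risers and 12.3% of 260 late risers of introns. Fallers of introns held it at 9.5% (fading), 13.9% (growing) and 12.3% (late), the same shares as the growing and late risers for the last 2. In exons it was present for 21.6% of 116 growing risers and 11.9% of 236 late risers, and for 12.9% of 280 late fallers, with 12.1% of the 8868 genes tested. The AP-1 letters TGANTCA on either strand were present for 7.9% of the fading risers, 7.4% of the growing fallers, 6.9% of the late fallers and 3.5% to 6.0% of the other classes of introns, and for 6.0% of all genes tested. Of the Myc network, Max (chr12:76962199-76962498, minus strand), Mnt (chr11:74830674-74830973, plus strand) and Mxd4 (chr5:34187661-34187960, minus strand) held an E-box, in capitals below. P2ry2 (chr7:101012004-101012303, minus strand) is shown as a gene whose exons grew and whose E-box lies after the start of transcription.
Max: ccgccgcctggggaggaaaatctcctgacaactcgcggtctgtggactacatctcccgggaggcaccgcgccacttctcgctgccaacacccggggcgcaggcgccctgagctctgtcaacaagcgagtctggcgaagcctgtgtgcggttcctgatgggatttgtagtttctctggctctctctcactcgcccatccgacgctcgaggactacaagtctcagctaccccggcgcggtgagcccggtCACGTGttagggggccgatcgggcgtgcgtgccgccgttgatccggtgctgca
Mnt: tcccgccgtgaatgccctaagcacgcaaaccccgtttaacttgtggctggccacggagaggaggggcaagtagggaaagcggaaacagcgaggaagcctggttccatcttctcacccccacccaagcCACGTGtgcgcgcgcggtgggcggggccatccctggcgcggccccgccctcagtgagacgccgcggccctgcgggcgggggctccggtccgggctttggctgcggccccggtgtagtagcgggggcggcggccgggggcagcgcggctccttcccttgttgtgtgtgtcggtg
Mxd4: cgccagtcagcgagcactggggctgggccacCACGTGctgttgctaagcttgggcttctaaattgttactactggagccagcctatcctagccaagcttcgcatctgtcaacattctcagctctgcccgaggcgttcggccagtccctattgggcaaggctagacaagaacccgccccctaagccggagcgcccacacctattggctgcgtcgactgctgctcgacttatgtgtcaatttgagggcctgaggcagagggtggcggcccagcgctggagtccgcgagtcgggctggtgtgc
P2ry2: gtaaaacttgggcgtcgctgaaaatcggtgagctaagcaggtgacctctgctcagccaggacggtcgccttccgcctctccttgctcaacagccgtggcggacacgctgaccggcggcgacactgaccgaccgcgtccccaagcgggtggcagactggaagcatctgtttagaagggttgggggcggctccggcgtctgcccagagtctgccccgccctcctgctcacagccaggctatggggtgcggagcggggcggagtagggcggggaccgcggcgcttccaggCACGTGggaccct
These promoters were picked for holding the letters, and binding was not tested.

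Responses that grew or began included Rgcc, Ankrd6, Pcsk6, Mob3b and Smoc1. Other large intron rises were those of Kcnip3, a calcium sensor of potassium channels (1.56) and Trim71, a ubiquitin ligase (1.34, limma adjusted p = 0.000247 and 0.00411). Rgcc, a regulator of cell cycle kinases, had intron values of 454, 334 and 541 at 2 h, 118, 84.6 and 87.5 at 30 min and 33.2, 23.7 and 34.98 at 0 min (log2 change 2.17 ± 0.24, limma adjusted p = 1.53e-07). The 3 groups did not overlap. Its exon values were 70.2, 43.3 and 115 at 2 h and 12, 6.14 and 12.5 at 30 min (log2 change 2.73 ± 0.41, limma adjusted p = 2.26e-05), from low 30 min levels. Replicate 2 was the lowest of the 2 h libraries in both tables.

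Ankrd6 (diversin), a Wnt signalling regulator at chr4:32891010-33037816 of mm9, had already risen in introns at 30 min but not in exons. Intron values were 2844, 2971 and 3107 at 2 h, 884, 978 and 997 at 30 min and 446, 375 and 371 at 0 min (log2 change 1.64 ± 0.10, limma adjusted p = 1.14e-13). Exon values were 220.4, 193 and 232 at 2 h, 39.99, 43.97 and 36.6 at 30 min and 52.4, 50.5 and 44.4 at 0 min (log2 change 2.39 ± 0.16, limma adjusted p = 6.42e-13). At 30 min every exon library was thus below every 0 min library, a difference that did not pass (-0.28 ± 0.16, limma adjusted p = 0.275), while introns had risen (1.26 ± 0.10, limma adjusted p = 2.73e-12).

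Pcsk6 (a proprotein convertase, chr7:73007057-73195220), Mob3b (a kinase activator of the MOB family, chr4:34896323-35104733) and Smoc1 (a secreted BMP antagonist, chr12:82127795-82287401) were alike and span 188.2, 208.4 and 159.6 kb. Pcsk6 introns were 7413, 7549 and 7272 at 2 h and 3164, 3405 and 3160 at 30 min (log2 change 1.19 ± 0.06, limma adjusted p = 6.5e-15). Mob3b introns were 4777, 4400 and 4964 at 2 h and 2213, 1957 and 2045 at 30 min (log2 change 1.19 ± 0.09, limma adjusted p = 2.75e-10). Smoc1 introns were 13270, 11240 and 11820 at 2 h and 6024, 5744 and 6639 at 30 min (log2 change 0.98 ± 0.11, limma adjusted p = 1.83e-07). All 3 were growing risers in introns and late risers in exons, where they rose by 1.19, 1.64 and 1.23 on the log2 scale (limma adjusted p = 4.78e-08, 9.97e-09 and 1.15e-07). None of the 3 had passed in exons at 30 min against 0 min. Ppargc1b (PGC-1β), a coactivator of mitochondrial genes, had the same pattern, with exons of 157, 142 and 180.1 at 2 h and 29.99, 29.7 and 30.3 at 30 min (log2 change 2.37 ± 0.20, limma adjusted p = 1.84e-10), and its introns rose by 0.80 (limma adjusted p = 0.00357).

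Arhgap39, a GTPase-activating protein at chr15:76554415-76648600 of mm9, passed in exons but not in introns between 30 min and 2 h. Its introns were 8722, 8495 and 8674 at 2 h and 8606, 8405 and 8970 at 30 min, with 3845, 3551 and 3268 at 0 min. Its exons were 1004, 944 and 961 at 2 h, 447, 472 and 408 at 30 min and 429, 367 and 505 at 0 min (log2 change 1.13 ± 0.09, limma adjusted p = 7.15e-11). The intron groups overlapped (log2 change 0.00, limma adjusted p = 0.976), and the exon to intron ratio rose by 1.14 ± 0.12, limma adjusted p = 4.54e-06. Plxnd1, a semaphorin receptor, and P2ry2, a receptor for extracellular ATP and UTP, were alike, with exon changes of 0.92 and 1.22 (limma adjusted p = 1.28e-07 and 0.00053) and intron changes of 0.08 and 0.19 that did not pass (limma adjusted p = 0.547 and 0.535). P2ry2 exons were 107, 127 and 115 at 2 h and 86.97, 39.9 and 34.5 at 30 min, where replicate 1 was far above the others. The ratio rose for both (log2 change 0.84 ± 0.12, limma adjusted p = 0.000242 for Plxnd1 and 1.01 ± 0.22, limma adjusted p = 0.00698 for P2ry2), in all 6 fits for Plxnd1 and in 5 for P2ry2. Between 1.5 h and 20 min the ratio of none of these genes passed. Its changes were 0.35, 0.21 and 0.61 for Arhgap39, Plxnd1 and P2ry2 (limma adjusted p = 0.0928, 0.326 and 0.0972).

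**Figure D3:**
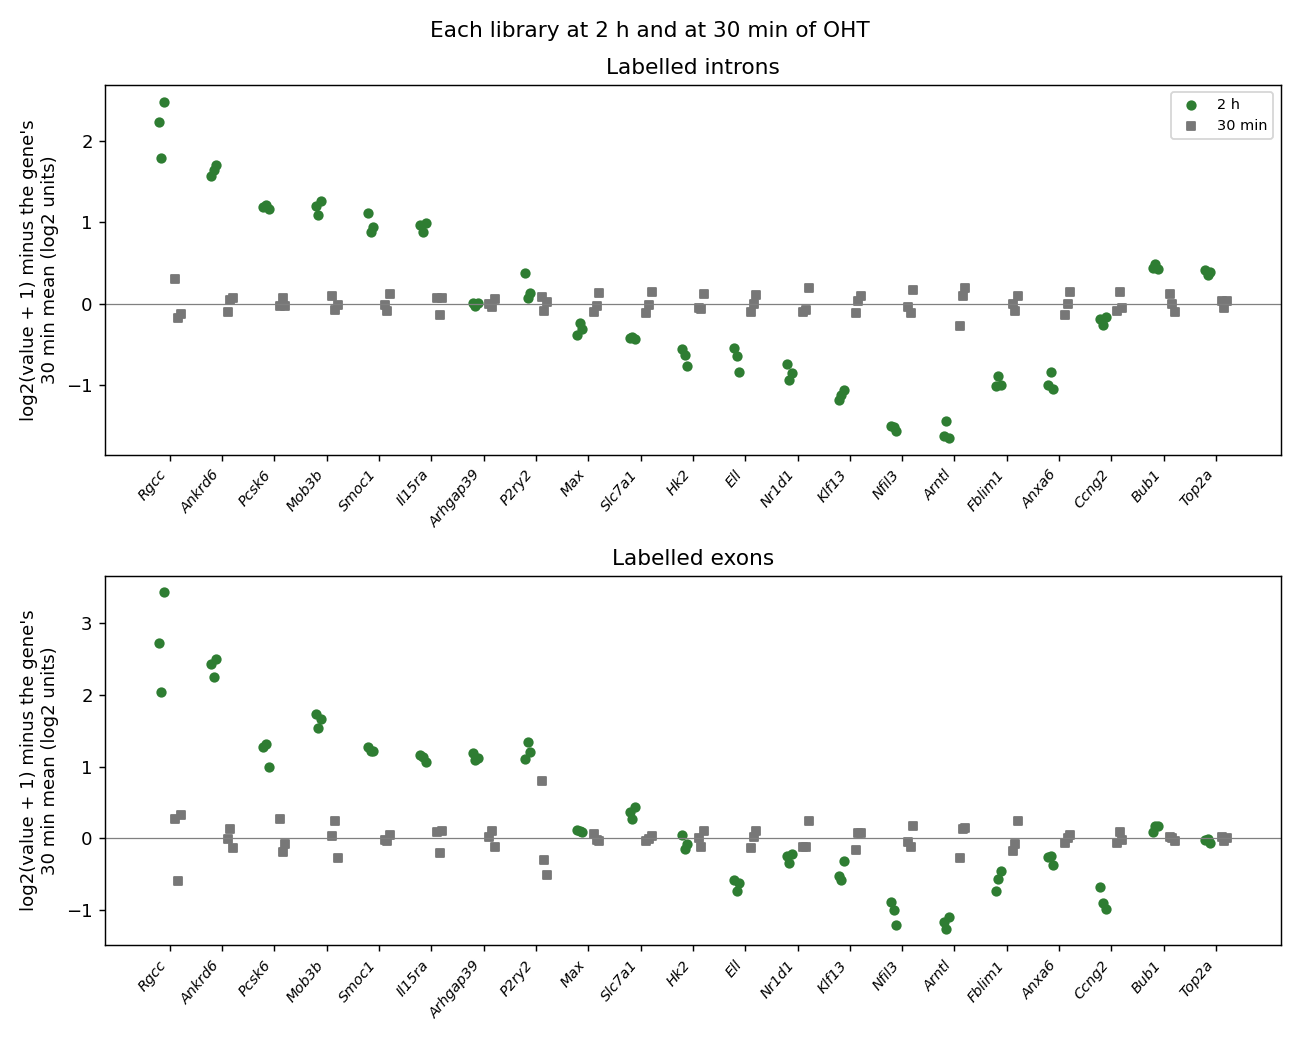
Each library of 21 genes at 2 h (green circles, left) and at 30 min (grey squares, right), as log2(value + 1) minus the gene's mean at 30 min (vertical axis, log2 units), for labelled introns above and labelled exons below. Arhgap39, P2ry2 and Ccng2 separate by time more in exons than in introns, while Hk2 and Top2a separate in introns alone.

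Most late risers of exons already had higher introns at 30 min. Of the 301 late risers of exons, 208 (69.1%) had introns called higher at 30 min than at 0 min, against 22.1% of the 11481 genes in both tables. The growing risers of exons had them more often, for 150 of 154 (97.4%). A rise not called in exons at 30 min need not be absent. At that time 7.87% of genes were called higher in exons, against 22% in introns. These 208 genes had a median span of 47.2 kb (195 with an annotated span), against 24.8 kb for the growing risers of exons and 25.5 kb for all genes. Among genes whose introns were higher at 30 min, exons were called higher at 30 min for 16.8% of the 197 genes of 100 to 200 kb and 11.3% of the 62 genes over 200 kb. In the 5 shorter span bins that share was 27.1% to 36.9%. Between 30 min and 2 h the order of the shares called turned: exons rose for 29.4% of genes of 100 to 200 kb and 30.6% of those over 200 kb, and for 11.1% to 14.6% in the shorter bins. In all 6 fits the exon rises numbered 37 of 197 and 11 of 62 in the longer bins, and 3 of 116, 15 of 287, 28 of 497, 37 of 774 and 23 of 399 in the shorter ones, from the shortest up. Median exon changes between 2 h and 30 min were 0.16 in both longer bins and 0.05 to 0.13 in the shorter ones. At 30 min against 0 min the exon medians differed less by span than the shares called. They were 0.12 for 100 to 200 kb, 0.14 over 200 kb, 0.22 under 5 kb and 0.15 to 0.24 over the shorter bins. The median intron rise at 30 min itself ran from 0.60 under 5 kb to 0.28 over 200 kb, and its part was not tested.

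Falls were more frequent among the longer genes. The median intron change was 0.01 to 0.04 for genes under 50 kb, -0.04 for 50 to 100 kb, -0.07 for 100 to 200 kb and -0.13 over 200 kb. Introns fell for 26.2% of the 527 genes over 200 kb and rose for 9.1%, where 2.2% fell and 4% rose among the 941 genes under 5 kb. Late fallers of introns had a median span of 80.4 kb, against 25.5 kb over all genes. Prim2, a subunit of DNA primase, was an example, with introns of 8577, 8600 and 8169 at 2 h and 12120, 12120 and 11930 at 30 min (log2 change -0.51 ± 0.06, limma adjusted p = 5.62e-07) and exons that did not pass (log2 change -0.19, limma adjusted p = 0.0882). Between 1.5 h and 20 min the medians by span ran from -0.12 under 5 kb to 0.02 at 20 to 50 kb and -0.09 over 200 kb.

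**Figure D4:**
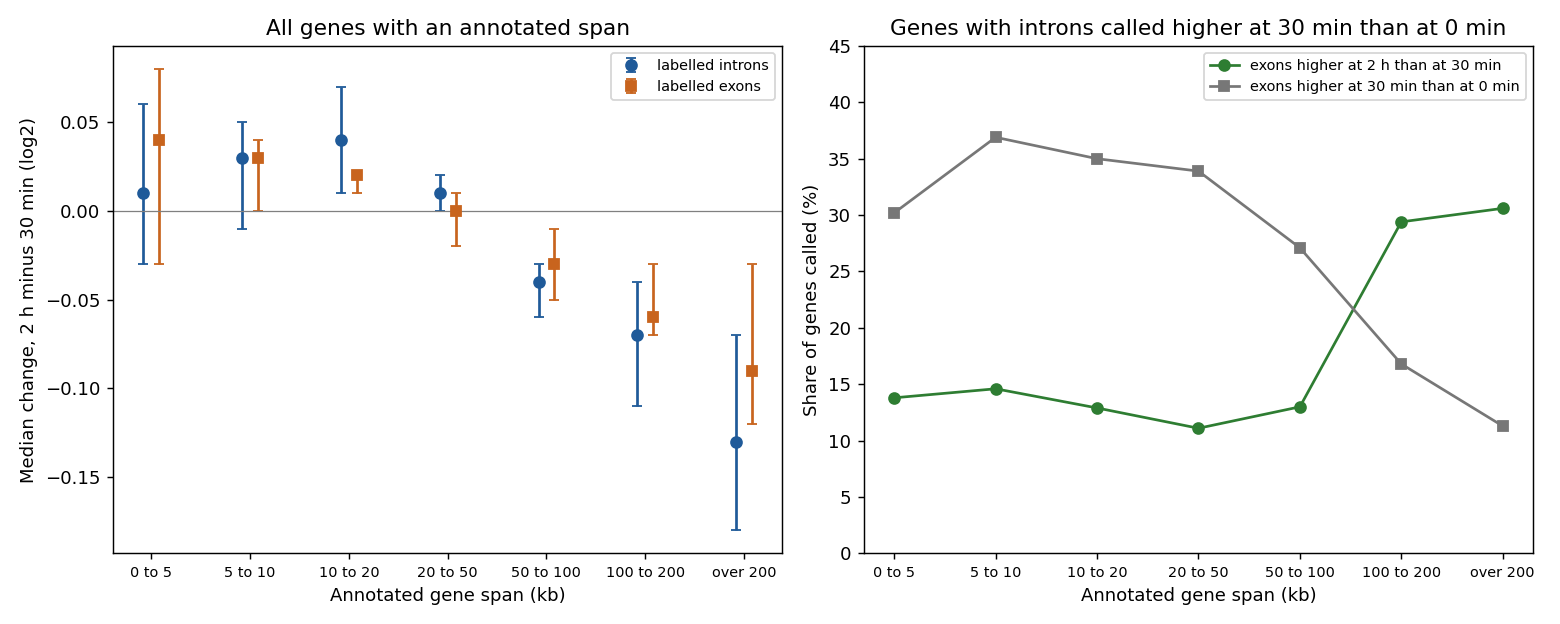
Left, median log2 change at 2 h against 30 min by annotated gene span (kb), with bars from the lowest to the highest of the 9 pairs of libraries. Right, for genes whose introns were higher at 30 min than at 0 min, the share (%) whose exons rose between 30 min and 2 h (green) or were already higher at 30 min (grey). Over 100 kb the first share is near 30% and the second at 16.8% and 11.3%.

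Of 18 measured amino acid transporters, 11 had higher introns at 30 min than at 0 min, where 22% of all genes did. At 2 h against 30 min introns fell for 6 and rose for 2 (11% of all genes each way), while exons rose for 3 and fell for none (4.69% and 4.54% of all genes), and the exon to intron ratio rose for 7 and fell for none. Medians were -0.14 in introns, 0.07 in exons and 0.26 for the ratio, each within 0.01 of 0 over all genes tested. Of the 8 intron calls 7 were kept without either replicate 3, and all 3 exon calls were. At 1.5 h against 20 min the intron balance was the other way, with 5 rises and 2 falls and a median of 0.04, while exons rose for 6 and fell for none. Of all genes, 14.1% rose and 12.7% fell in introns in that step, and 8.83% rose in exons.

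Slc7a1, the carrier of cationic amino acids at chr5:149138986-149211480 of mm9, was a fading riser in introns and a growing riser in exons. Its introns were 18180, 18330 and 18040 at 2 h, 22580, 24110 and 26920 at 30 min and 10560, 10940 and 9322 at 0 min (log2 change -0.43 ± 0.07, limma adjusted p = 7.75e-05). Its exons were 5511, 5188 and 5801 at 2 h, 4193, 4272 and 4399 at 30 min and 3419, 3165 and 3351 at 0 min (log2 change 0.36 ± 0.08, limma adjusted p = 0.00168). The groups did not overlap in either table, and the ratio rose by 0.79 ± 0.11, limma adjusted p = 0.000223. Between 1.5 h and 20 min its exons rose (0.73 ± 0.08, limma adjusted p = 8.64e-09) and its introns did not pass (log2 change -0.01 ± 0.07, limma adjusted p = 0.951).

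Slc7a5, the LAT1 carrier of large neutral amino acids, fell in introns to 5405, 5079 and 5082 at 2 h, against 7559, 7420 and 8712 at 30 min (log2 change -0.60 ± 0.10, limma adjusted p = 4.42e-05), and its exons did not pass (log2 change 0.01, limma adjusted p = 0.95). Slc38a1, a glutamine carrier, also fell in introns (log2 change -0.38 ± 0.07, limma adjusted p = 0.000194). The larger of the 2 intron rises was that of Slc38a3, a glutamine carrier chosen after its values were seen, from low values: 35.2, 32.01 and 58.1 at 2 h and 7.05, 9.83 and 11.5 at 30 min (log2 change 2.00 ± 0.48, limma adjusted p = 0.00296). Slc43a2 (LAT4) rose in both tables, with exons of 383, 389.9 and 428 at 2 h and 232, 234 and 275 at 30 min (log2 change 0.70 ± 0.13, limma adjusted p = 0.000362). Slc5a6, which carries biotin and pantothenate, split like Slc7a1, with changes of -0.40 in introns and 0.42 in exons (limma adjusted p = 0.00971 and 0.00296). Its intron call was lost without replicate 3 at 30 min (limma adjusted p = 0.103).

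Glycolysis genes were mixed, with introns of 4 higher and 3 lower at 2 h of 21 measured, and exons of 3 higher and none lower, where 11% of all genes were called each way in introns and 4.69% were higher in exons. Of the 7 intron calls 5 were kept without either replicate 3. Hk2, a hexokinase that commits glucose to glycolysis, had introns of 7634, 7211 and 6581 at 2 h and 10850, 10730 and 12190 at 30 min (log2 change -0.66 ± 0.10, limma adjusted p = 1.29e-05). Its exons were 3194, 2777 and 2919 at 2 h and 3093, 2849 and 3317 at 30 min, overlapping and not called (limma adjusted p = 0.774), and the ratio rose by 0.60 ± 0.08, limma adjusted p = 5.34e-05. Slc16a1 and Pfkfb3, a lactate carrier and an activator of glycolysis, rose in exons by 0.38 and 0.38 (limma adjusted p = 0.00335 and 0.00299). The other exon rise, of Ldha (lactate dehydrogenase A, log2 change 0.25, limma adjusted p = 0.0246), held in 2 of the 6 fits and was lost without replicate 3 at 30 min (limma adjusted p = 0.168).

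Most ribosome production genes had risen in introns by 30 min, with few calls after that. Of 39 measured ribosome biogenesis genes, introns of 31 were higher at 30 min than at 0 min, and at 2 h against 30 min 2 fell and none rose, with a median of 0.00. Exons of 16 were higher at 30 min, and between 30 min and 2 h exons of 5 rose and of none fell, with a median of 0.11. Among all genes 11% fell in introns and 4.69% rose in exons in that step. At 30 min against 0 min, 22% of all genes were higher in introns and 7.87% in exons. The intron falls were of Bop1 and Pes1, which act together in making the large ribosomal subunit (log2 change -0.30 and -0.22, limma adjusted p = 0.00869 and 0.0142). The exon rises, of Rrp9, Ddx10, Bop1, Utp15 and Ltv1, were 0.21 to 0.33 on the log2 scale (Ddx10 and Ltv1 chosen after their values were seen). None of these 7 calls held in all 6 fits: without replicate 3 at 30 min the call of Utp15 alone remained, and it was lost without replicate 3 at 2 h (limma adjusted p = 0.0652). At a limma unadjusted p under 0.05, exons of 11 rose and of none fell. In the libraries of 1.5 h and 20 min exons of 10 rose and of none fell (median 0.13), where 8.83% of all genes rose. Introns of 3 fell and of none rose there, where 12.7% of all genes fell. With library-sum scaling no intron fell and 4 rose, so the intron direction depends on the scaling. Ncl (nucleolin) had introns of 9504, 9035 and 8097 at 2 h, 9100, 7871 and 9143 at 30 min and 5895, 6055 and 5019 at 0 min, with the 2 h and 30 min groups overlapping (limma adjusted p = 0.861).

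Of 35 genes of RNA polymerases I and III, introns of 5 rose and of none fell, and exons of 4 rose and of none fell, with 3 and 2 of these rises held in all 6 fits. The intron count is near the 11% of all genes, and the median intron change was -0.02. Scaling by library sums gave 10 intron rises and no further scaling 3. At 1.5 h against 20 min introns of 5 rose and of 3 fell, where 14.1% of all genes rose and 12.7% fell. Taf1c, a subunit of the polymerase I selectivity factor, rose in both, with exons of 505, 483 and 585 at 2 h and 339, 358 and 406 at 30 min (log2 change 0.51 ± 0.10, limma adjusted p = 0.00122). Polr3g, a polymerase III subunit, rose in exons to 1097, 1160 and 1030 at 2 h, against 864, 749.6 and 729 at 30 min (log2 change 0.49 ± 0.09, limma adjusted p = 0.000236). Cytosolic ribosomal proteins had no call in either direction in introns or exons by limma among 51 measured, with 1 at unadjusted p under 0.05 and a median of 0.07 in each table.

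Genes of the immediate early response, transcription factors that growth factor signals induce within minutes, had few calls that held without 1 library. Of 24 measured, introns of 8 were higher at 30 min than at 0 min, where 22% of all genes were. At 2 h against 30 min introns of 6 fell and of 1 rose, where 11% of all genes were called each way. Of these 7 calls, 2 were kept without replicate 3 at 30 min and 2 without replicate 3 at 2 h, and in all 6 fits only the falls of Klf10 and Fosb were. At 1.5 h against 20 min introns of 9 of the 24 fell and of 1 rose, with a median of -0.63, where 12.7% of all genes fell. In exons 2 fell and 1 rose between 30 min and 2 h, where 4.54% of all genes fell and 4.69% rose. The rise, of Zfp36l1, held in all 6 fits, and neither fall did. The median exon change was -0.24, and at a limma unadjusted p under 0.05 exons of 8 fell and of 1 rose. Klf10, a TGF-β-inducible factor, had introns of 286, 331 and 284 at 2 h and 406, 505 and 479 at 30 min (log2 change -0.62 ± 0.16, limma adjusted p = 0.00475). Fosb, an AP-1 subunit, had 14.5, 9.002 and 12.8 at 2 h and 30.2, 35.4 and 41.4 at 30 min (log2 change -1.50 ± 0.36, limma adjusted p = 0.00326), a low level. Egr3, a zinc finger factor, lost its intron fall without replicate 3 at 30 min (limma adjusted p = 0.133) and without replicate 3 at 2 h (limma adjusted p = 0.0919). Klf13, a GC-box factor outside the list, had introns of 2449, 2557 and 2672 at 2 h, 5124, 5706 and 5940 at 30 min and 3776, 3643 and 3523 at 0 min (log2 change -1.13 ± 0.09, limma adjusted p = 3.16e-10).

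Among inhibitors of the MAPK pathway, introns of 7 of 17 were lower at 2 h and none higher (median -0.29), where 11% of all genes were lower. Of these, 2 were kept without replicate 3 at 30 min and 3 without replicate 3 at 2 h, and library-sum scaling gave 4. In exons 2 fell (Dusp1 and Errfi1) and 1 rose (Dusp2), where 4.54% of all genes fell and 4.69% rose. None of these 3 exon calls remained without replicate 3 at 30 min or at 2 h. Dusp14, a phosphatase, had introns of 2088, 2539 and 2141 at 2 h and 3218, 3273 and 3582 at 30 min (log2 change -0.58 ± 0.09, limma adjusted p = 4.67e-05), and Spred2, which restrains Ras signalling, had 11530, 10730 and 10290 at 2 h and 13920, 14030 and 16320 at 30 min (log2 change -0.44 ± 0.08, limma adjusted p = 0.000264). These 2 falls held in all 6 fits and neither gene passed in exons (limma adjusted p = 0.107 and 0.922). At 1.5 h against 20 min introns of 4 of 17 fell, where 12.7% of all genes did. Dusp14 was among them (-0.38 ± 0.09, limma adjusted p = 0.00246), and Spred2 did not pass (0.00 ± 0.08, limma adjusted p = 0.98).

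Of 26 genes of RNA polymerase II elongation and Mediator, introns of 5 fell and of none rose, and exons of 3 fell and of 1 rose, where 11% of all genes fell in introns and 4.54% in exons. The 3 exon falls were of Ell, Aff1 and Aff4, parts of the super elongation complex that releases paused polymerase. Ell introns were 4992, 4687 and 4076 at 2 h, 6834, 7267 and 7900 at 30 min and 5867, 5140 and 5772 at 0 min (log2 change -0.68 ± 0.09, limma adjusted p = 1.77e-06), and its exons fell by a like amount (log2 change -0.64 ± 0.10, limma adjusted p = 3.62e-05). Aff1 and Aff4 introns fell (-0.41 and -0.33, limma adjusted p = 4.67e-05 and 0.00121). All of these falls held in all 6 fits, and all 3 genes also fell in introns between 1.5 h and 20 min (limma adjusted p = 5.07e-06, 0.0403 and 0.00629). With library-sum scaling the intron counts of the list were 4 lower and 4 higher.

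Genes of the actin cytoskeleton were called in 1 direction, as falls. Of 33 measured actomyosin and SRF target genes, introns of 11 fell and of none rose at 2 h against 30 min (median -0.27), and exons of 5 fell and of none rose (median -0.08). Among all genes 11% fell in introns and 4.54% in exons. Library-sum scaling left 8 intron falls and no rise. At 30 min against 0 min, 6 had been higher and 1 lower in introns, where 22% of all genes were higher and 20.1% lower. From 20 min to 1.5 h, introns of 22 of the 33 fell and of none rose, where 12.7% of all genes fell and 14.1% rose. In all 6 fits 4 intron falls were kept, of Fblim1, Tgfb1i1, Actn1 and Actn4 (the last chosen after its values were seen), and these 4 were also all that remained without replicate 3 at 30 min.

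Fblim1 (migfilin), a filamin-binding adapter at chr4:141131977-141162011 of mm9, had introns of 319, 348 and 321 at 2 h, 645, 605 and 692 at 30 min and 759, 756 and 729 at 0 min (log2 change -0.97 ± 0.10, limma adjusted p = 5.34e-08). Its exons were 249.7, 281 and 305 at 2 h and 369, 396 and 496 at 30 min (log2 change -0.58 ± 0.16, limma adjusted p = 0.018), a call lost without replicate 3 at 30 min (limma adjusted p = 0.146). Tgfb1i1 (Hic-5), a focal adhesion adapter, had exons of 658, 649.9 and 544 at 2 h and 1138, 1013 and 1271 at 30 min (log2 change -0.88 ± 0.17, limma adjusted p = 0.000713). Actn1, α-actinin, fell in introns (log2 change -0.46 ± 0.09, limma adjusted p = 0.000643) and did not pass in exons (log2 change -0.08, limma adjusted p = 0.694).

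Growing fallers included Ccng2, E2f7 and Stil in exons and Anxa6 in introns. Ccng2 (cyclin G2), an inhibitor of cycling at chr5:93696283-93705257 of mm9, had exons of 131, 112 and 106 at 2 h, 199.9, 223 and 206 at 30 min and 388, 429 and 436 at 0 min (log2 change -0.85 ± 0.16, limma adjusted p = 0.00057). Its introns were 158, 150 and 160.5 at 2 h, 169, 199 and 174 at 30 min and 488, 529 and 469 at 0 min, and did not pass between 2 h and 30 min (log2 change -0.21, limma adjusted p = 0.324). The exon groups of the 3 times did not overlap, and neither did the intron groups of 2 h and 30 min, whose gap was small. E2f7, a repressor among the E2F factors, and Stil, needed to duplicate centrioles, fell in exons by 0.48 and 0.48 on the log2 scale (limma adjusted p = 7.31e-06 and 6.3e-05). Anxa6, a membrane-binding annexin, fell further in introns, with 1653, 1854 and 1595 at 2 h, 3020, 3314 and 3657 at 30 min and 3864, 4231 and 4304 at 0 min (log2 change -0.97 ± 0.12, limma adjusted p = 9.01e-07), than in exons (log2 change -0.29 ± 0.07, limma adjusted p = 0.00395), and its ratio rose by 0.67 ± 0.11, limma adjusted p = 0.000587.

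Most genes of mitosis had lower introns at 30 min than at 0 min, and introns of many then rose. Of 31 measured, introns of 24 were lower at 30 min than at 0 min and none higher, and between 30 min and 2 h introns of 14 rose and of none fell (median 0.18), 9 of them in all 6 fits and 9 without replicate 3 at 2 h. Exons of 15 were lower at 30 min, and between 30 min and 2 h exons of 1 rose and of 2 fell (median -0.05). The exon to intron ratio fell for 8 of 31 and rose for none. Over all genes introns rose for 11% between 30 min and 2 h, and the ratio fell for 2.25%. At 30 min against 0 min, 20.1% of all genes were lower in introns and 3.7% in exons. Scaling by library sums gave 21 intron rises and no further scaling 8, with no falls in either. From 20 min to 1.5 h introns of 7 rose and of 3 fell, where 14.1% of all genes rose and 12.7% fell.

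Top2a, a topoisomerase that untangles chromosomes, at chr11:98854257-98885503 of mm9, had introns of 7941, 7669 and 7815 at 2 h, 6103, 5769 and 6089 at 30 min and 10080, 10930 and 10120 at 0 min (log2 change 0.38 ± 0.05, limma adjusted p = 7.25e-06). The 2 h libraries lay between the other groups. Its exons were 8669, 8744 and 8386 at 2 h, 8907, 8607 and 8846 at 30 min and 10990, 11430 and 11020 at 0 min and did not pass between 2 h and 30 min (log2 change -0.03, limma adjusted p = 0.794), and the ratio fell (-0.41 ± 0.06, limma adjusted p = 0.000457). Bub1, a kinase of the spindle checkpoint, had introns of 2922, 3040 and 2909 at 2 h, 2338, 2151 and 2008 at 30 min and 2942, 3611 and 3174 at 0 min (log2 change 0.45 ± 0.08, limma adjusted p = 8.7e-05), back within the 0 min range or just under it. Aurka and Cenpe, a mitotic kinase and a kinetochore motor, both chosen after their values were seen, rose in introns by 0.44 and 0.33 (limma adjusted p = 0.00186 and 0.00072) while their ratios fell (-0.52 ± 0.10, limma adjusted p = 0.00419 for Aurka and -0.53 ± 0.11, limma adjusted p = 0.00465 for Cenpe). Ncapd2, a condensin subunit, fell in exons (log2 change -0.29 ± 0.06, limma adjusted p = 0.00137).

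Outside mitosis, Kcnj2, a potassium channel, faded in both tables, with exons of 2094, 2526 and 2638 at 2 h, 1318, 1679 and 1381 at 30 min and 1905, 2579 and 2131 at 0 min (log2 change 0.73 ± 0.15, limma adjusted p = 0.000986) and an intron rise of 0.69 (limma adjusted p = 0.000927). Ldhb, lactate dehydrogenase B, rose again in introns, with 2123, 2572 and 2488 at 2 h and 1367, 1619 and 1203 at 30 min (log2 change 0.78 ± 0.14, limma adjusted p = 0.00026), and its exons overlapped. The chemokine Cxcl1 began to rise, with exons of 2019, 2154 and 1793 at 2 h and 1396, 1247 and 1227 at 30 min (log2 change 0.62 ± 0.16, limma adjusted p = 0.0087). Among 20 NF-kB targets and cytokines introns of 3 and exons of 2 rose, near the 11% and 4.69% of all genes. Cxcl1 was the 1 in each that remained without replicate 3 at 30 min. Introns of 5 of 23 sterol synthesis genes rose and of none fell (median 0.36), where 11% of all genes rose, and none of these calls remained without replicate 3 at 2 h. Scaling by library sums gave 12 sterol rises and no further scaling 2. At a limma unadjusted p under 0.05, introns of 14 rose and of 1 fell. In the libraries of 1.5 h and 20 min, introns of 9 rose and of 2 fell (median 0.39), where 14.1% of all genes rose.

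**Figure D5:**
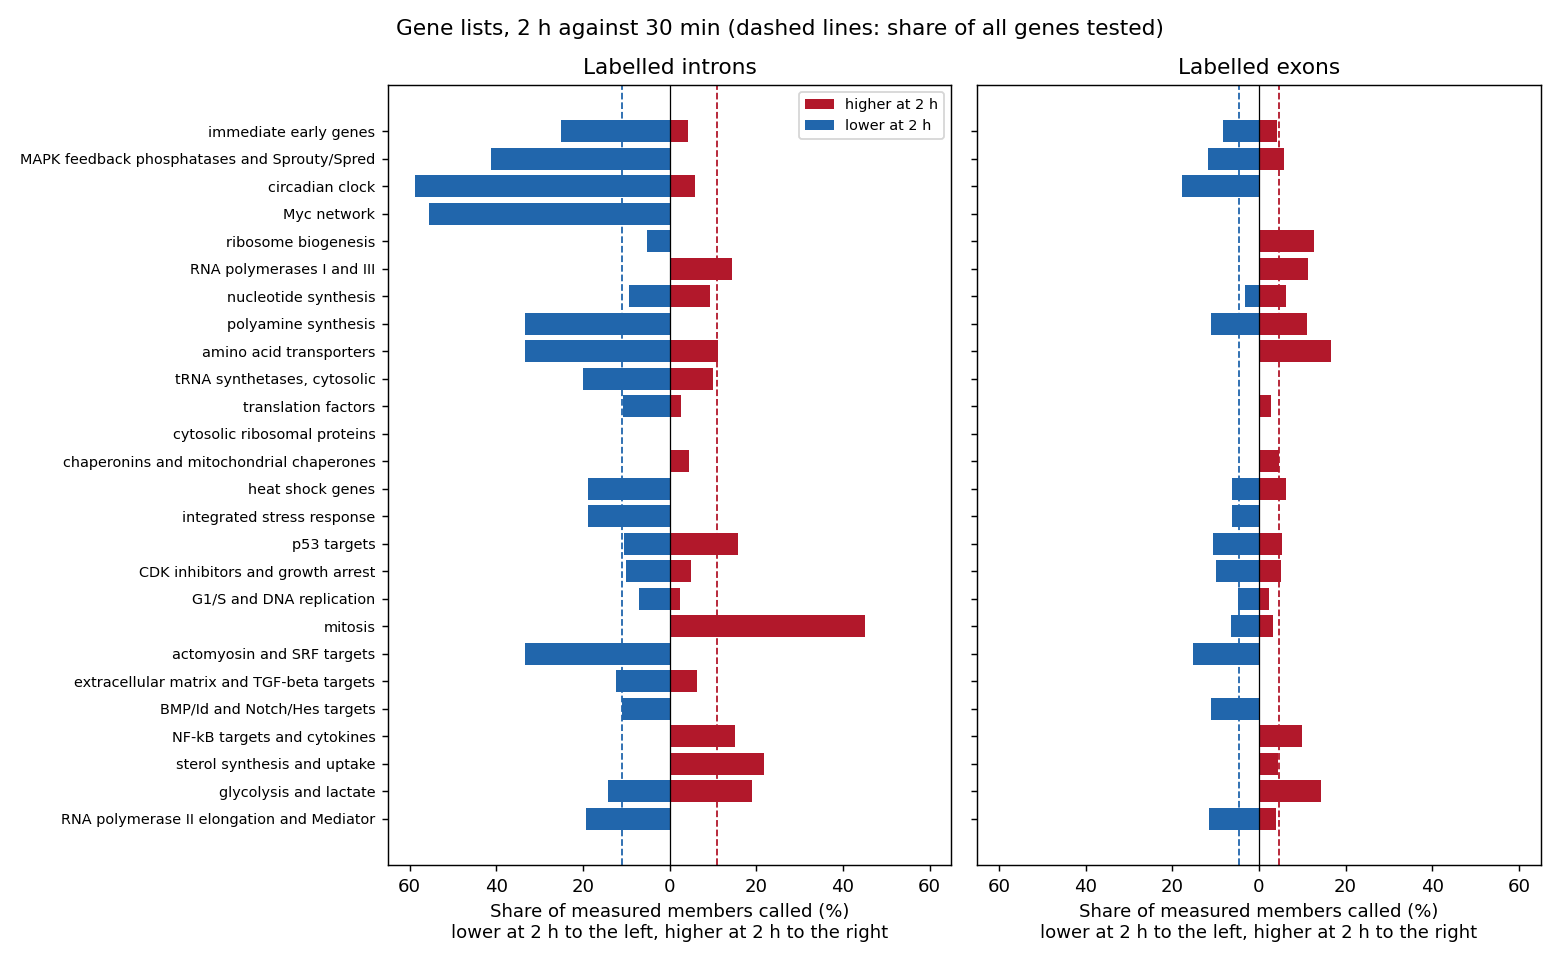
Share of the measured members of each gene list (%) called lower (blue, to the left) and higher (red, to the right) at 2 h than at 30 min, for labelled introns and labelled exons, with dashed lines at the share of all genes tested. Introns of the clock and the Myc network lie far past the line for falls and introns of mitosis far past the line for rises.

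Most lists not described above had calls in both directions or in few genes, against 11% of all genes each way in introns. Nucleotide synthesis had 3 intron rises and 3 falls among 32 genes, p53 targets 3 and 2 among 19, and genes of G1/S and DNA replication 1 and 3 among 42. Without replicate 3 at 2 h, 3, 3 and 2 of these calls were kept. At 1.5 h against 20 min, introns of 17 of the 42 G1/S genes fell and of 2 rose (12.7% of all genes fell). Polyamine synthesis had 3 intron falls and no rise among 9 genes at 2 h against 30 min. Heat shock genes and the integrated stress response each had 3 falls and no rise among 16. Without replicate 3 at 30 min 1, 2 and 0 of these falls were kept. Library-sum scaling gave 2, 2 and 1 falls, with 3 rises of heat shock genes. Myc itself, whose values cannot be assigned between the cell's own gene and MycER, had exons of 3239, 2719 and 2644 at 2 h and 3486, 2868 and 3731 at 30 min and was not called (limma adjusted p = 0.434). Odc1, the first enzyme of polyamine synthesis, was higher at 30 min than at 0 min in introns and was not called between 2 h and 30 min (log2 change 0.02, limma adjusted p = 0.944). Fos and Egr1, immediate early factors, were not called in introns (limma adjusted p = 0.46 and 0.409) or exons (limma adjusted p = 0.19 and 0.148).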

How the data were processed

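Labelled RNA of 3T9-MycER cells was sequenced as 33 libraries over 11 times, of which the 3 at 2 h and the 3 at 30 min were compared. Per the labels' protocols RNA was labelled with 4sU, biotinylated and captured. Per the submitters' processing notes, reads were aligned with TopHat2 2.0.8 to mm9. No source used here gives the counting tool or its use of strand, so overlapping and antisense genes cannot be told apart. The values deposited by the authors are named counts but have been rescaled per library, so each was treated as a score and the read depth is unknown. No interval for counting error was therefore given, and no count model was used.

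Libraries were rescaled by a trimmed mean of log2 ratios (30% of ratios and 5% of levels trimmed), and a gene was tested where 3 libraries or more reached 10. The test was limma 3.58.1 (R 4.3.3) on log2(value + 1), fitting a mean for each time to all 33 labelled libraries, with Benjamini-Hochberg adjustment over all genes of a table. A call is an adjusted p under 0.05. Errors beside log2 changes are standard errors of the fit, and values per library are the rescaled ones. Fold changes on this scale understate those of low genes. The ratio of exons to introns was log2(exon + 2) minus log2(intron + 2) within a library. Total RNA was fitted the same way. The script was tested on simulated data.

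Named genes were the 10 largest called rises and falls per table, the 6 largest of each class, the 5 largest ratio changes each way, up to 3 members per list and table by p, and 9 genes always shown. For the larger changes the higher group's mean had to reach 50 and the groups had to be free of overlap. Genes named outside this rule are marked in the text. The members and lists were chosen with earlier results of these data known. The alternatives were other scalings, a pseudocount of 5, no filter, a fit over the 6 libraries, a replicate block, and leaving out each of the 6 libraries. Other labelled times enter the fits and the time courses. Coordinates are those of GENCODE M1 on mm9 by gene symbol, and promoter sequences are from RefSeq on GRCm38.p6.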

Additional observations from a re-analysis of the deposited data

How the results depend on the processing

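Scaling by library sums gave 2122 rises and 727 falls in labelled introns, with 185 fading and 533 late risers and 1084 fading and 323 late fallers. No further scaling gave 355 fading fallers in introns, and in exons 317 falls, 21 fading and 94 growing risers, and 40 fading and 226 late fallers. A pseudocount of 5, no filter on low values, the fit over the 6 libraries and the replicate block kept every count computed within 1.5 times. The fit over the 6 libraries could not give classes, which need the 0 min libraries. Replicate numbers did not pair the samples, since deviations of same-numbered libraries correlated at 0.16, 0.03 and -0.06 in introns and 0.12, 0.02 and -0.03 in exons. The replicate block gave 1365 rises and 1406 falls in introns and 654 and 631 in exons.

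Leaving out 1 of the 6 libraries gave 660 to 1102 rises and 733 to 1065 falls in introns, 313 to 462 and 255 to 419 in exons, and 151 to 314 rises and 82 to 190 falls of the ratio. Intron classes then held 193 to 399 fading, 136 to 178 growing and 169 to 301 late risers, and 262 to 530 fading, 77 to 107 growing and 312 to 489 late fallers. Exon classes held 5 to 36 fading, 81 to 119 growing and 182 to 278 late risers, and 8 to 26 fading, 10 to 22 growing and 211 to 292 late fallers. Fewer libraries are tested in each such fit.

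With replicates 1 and 2 alone in both groups, chosen after seeing the data, introns had 303 rises and 363 falls, with 99 fading, 82 growing and 87 late risers and 116 fading, 42 growing and 205 late fallers. Exons had 177 rises and 157 falls, with 3 fading, 58 growing and 110 late risers and 1 fading, 8 growing and 135 late fallers, and the ratio 61 rises and 35 falls. Of 3645 values of single genes recomputed, 3205 were counted as unchanged, 388 lost a call, 52 gained one and 0 calls turned in sign. A value not called in the main fit counted as unchanged if its sign turned. Depth is unknown, so low values such as those of Fosb and Rgcc exons carry a counting error that cannot be given.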
